A study of Rattus norvegicus with 12 samples.

Results

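The genes described here are 10 glycolysis genes that are usually found in many tissues or in growing cells rather than being restricted to the hepatocyte: Slc2a1, Hk1, Hk2, Pfkp, Aldoa, Pgk1, Eno1, Pkm, Ldha and Ldhb. They were taken by name, as every non-control probe whose gene name in the scanner files equals one of these symbols, which gave 18 of 45598 probes and 10 of 36172 gene names. The rule uses no measured value, but the genes were chosen with earlier results of these data known. RNA was measured on 12 one-colour Agilent arrays, 3 in each of 4 groups, from F344 rats described as the DPPIV+ strain. Small hepatocytes are small progenitors found in the rat liver that can divide and mature into hepatocytes. Magnetic sorting for CD44 on day 9 after plating gave the cells used here, which were expanded on Matrigel. At passage 2 they spent 3 h on dishes with laminin-111 in group LN111, with laminin-511 in LN511 and with Matrigel in Mat. All 3 cultured groups shared a serum-free DMEM/F12 medium with 10 ng/mL EGF, 10 mM nicotinamide, dexamethasone and insulin-transferrin-selenium. Mature hepatocytes isolated from fresh livers (MH) were the control and had not been cultured. The labels give no age and no statement that replicates are separate rats or cultures, so p-values reflect only how far these samples vary, and that variation may be technical.

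Glycolysis turns glucose into pyruvate and, when pyruvate is reduced, into lactate. Several steps are carried out by alternative proteins from different genes. Hepatocytes take up glucose through Slc2a2 (GLUT2) and make pyruvate with the liver pyruvate kinase (Pklr). Growing and fetal cells commonly use GLUT1 (Slc2a1), hexokinases 1 and 2, aldolase A and the product of Pkm. Pkm makes its M1 or M2 form by using 1 of a pair of mutually exclusive exons, and the M2 form is the one usual in growing cells. Pgk1 and Eno1 serve nearly all tissues, the mature liver included, and Ldha is the main lactate dehydrogenase subunit of the liver.

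The identity of a value rests on its probe, so the probes on which the differences below turn are shown, each 60 bases long and written 5′ to 3′ in the sense of the mRNA. Positions are those of the files, on the rn4 assembly. The capitals mark the run assigned to the M1 exon of Pkm, and the other probes have no marked part. That assignment rests on the reading frame of the probe and on textbook knowledge of the M1 form, not on an annotation used here. Both Pkm probes are from chromosome 8, plus strand. The M1-exon probe A_64_P024077 lies at chr8:63504373-63504432, and A_44_P1163951 lies at chr8:63507632-63507691 in the last coding exon, which both forms share. The M1-exon probe lies 3199 bases before the next Pkm probe, while the other 3 Pkm probes fall within 385 bases.
Pkm A_64_P024077: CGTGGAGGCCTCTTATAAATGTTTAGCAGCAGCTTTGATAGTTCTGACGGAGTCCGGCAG
Pkm A_44_P1163951: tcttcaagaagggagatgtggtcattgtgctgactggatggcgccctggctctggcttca
The next 3 set a gene that was higher in culture (Aldoa, chr1:185972062-185972121, minus strand) beside one that did not pass the test (Eno1, chr5:167402355-167402413, plus strand) and one with no position in the files (Hk1). All 3 are coding sequence.
Hk1 A_44_P139536: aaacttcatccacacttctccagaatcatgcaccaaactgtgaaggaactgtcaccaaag
Aldoa A_44_P258912: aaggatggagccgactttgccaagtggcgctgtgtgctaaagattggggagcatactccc
Eno1 A_44_P1360447: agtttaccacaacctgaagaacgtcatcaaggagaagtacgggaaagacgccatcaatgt
The lactate dehydrogenase subunits moved in opposite directions. The Ldha probe lies at chr1:97411929-97411988 on the plus strand, and the Ldhb probe spans an intron between chr4:180061921-180063949 on the minus strand. Both are coding sequence.
Ldha A_44_P1362456: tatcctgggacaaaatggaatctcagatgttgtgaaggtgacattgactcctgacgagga
Ldhb A_44_P414066: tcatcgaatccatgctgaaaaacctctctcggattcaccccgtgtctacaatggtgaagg

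Levels are log2 of the processed signal relative to the 75th percentile of the array, and differences are in log2. Each array had 58717 gene spots, of which 52.2% to 62.7% stood well above background and 0 were saturated. Repeated probes varied by 8.66% (coefficient of variation) on LN111 replicate 3, the noisiest array, and by 3.13% to 4.01% elsewhere. The median difference of all probes between cultured and MH cells was -0.16 with this scaling, -0.41 with normexp background correction, 0.19 with quantile scaling and 0.88 without scaling between arrays, so small differences depend on the scaling. The MH arrays were on slide 1 with Mat replicates 1 and 2, and the other 7 arrays were on slide 2. MH and the laminin groups therefore cannot be told apart from slide, while Mat and MH can be compared within slide 1.

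The cells carried their labelled identity in part. Of 8 progenitor and biliary markers, 8 were higher in culture, Cd44 among them, which was the sort marker and is no finding. Of 10 hepatocyte markers, 9 were lower, although Alb kept group means of 5.56 to 6.38 against 7.30 in MH, and its difference of -1.37 turned to 0.13 with quantile scaling. Of 10 proliferation markers, 4 were higher in culture, Pcna by 1.56 and Mki67 by 1.10 (adjusted p = 0.0491) among them, 1 was lower (Aurka, by -4.61), and Top2a differed by 1.02 without passing (adjusted p = 0.17). All 10 Kupffer cell markers were lower in culture. Their summed level was 4.96 to 5.05 in MH and -1.98 to 1.78 in culture, and Cd5l, Marco and Adgre1 were not well above background on any cultured array. Of 7 sinusoidal endothelial markers, 6 were lower, with summed levels of 3.44 to 3.61 in MH and -3.68 to 1.74 in culture. MH RNA thus held other liver cells' transcripts that the cultured RNA held less of, and their part in the differences below was not tested. In bulk RNA, fewer cells of a type and less RNA per cell cannot be told apart. Mesothelial markers were higher for 3 of 4 and lower for 1, erythroid and platelet markers lower for 2 of 4, and lymphocyte and neutrophil markers lower for 1 of 2.

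All 18 probes passed the filter on dim signals, 4 of them (Hk1, both of Hk2, and the M1-exon probe of Pkm) through cultured groups alone, the groups where they were brighter, so their calls give no support. Between the 9 cultured arrays and MH, 15 of the 18 probes passed limma's test at an adjusted p of 0.05, 11 higher and 4 lower. Of the 14 other probes, 11 passed, 7 higher and 4 lower. Of all 23699 probes tested, 72.4% passed, 31.2% as higher and 41.2% as lower, so passing by itself sets no gene apart here. By gene, Slc2a1, Hk1, Hk2, Pfkp, Aldoa, Pkm and Ldhb were higher, Pgk1 and Ldha were lower, and Eno1 did not pass. The median difference was 2.63 over the 10 genes, 2.38 with Hk1 and Hk2 at their lower bound, and -0.16 over all probes. All 9 cultured arrays lay above all 3 MH arrays for 9 probes of 6 genes, and below them for 4 probes of 2 genes. Over all probes these shares were 22.3% and 34.5%. The 9 probes include those of Hk1 and the M1 exon of Pkm. Both entered through cultured groups alone, so their place above MH gives no support. Against MH, 12 probes were higher and 4 lower in LN111, where 66.1% of all probes passed (27.1% higher, 39% lower). In LN511 9 were higher and 4 lower, where 67.1% passed (31.5% and 35.6%), and in Mat 10 and 4, where 66.5% passed (26.3% and 40.3%). These comparisons share the MH arrays and count over all 18 probes, with the 4 that entered through cultured groups alone among them.

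**Figure D1:**
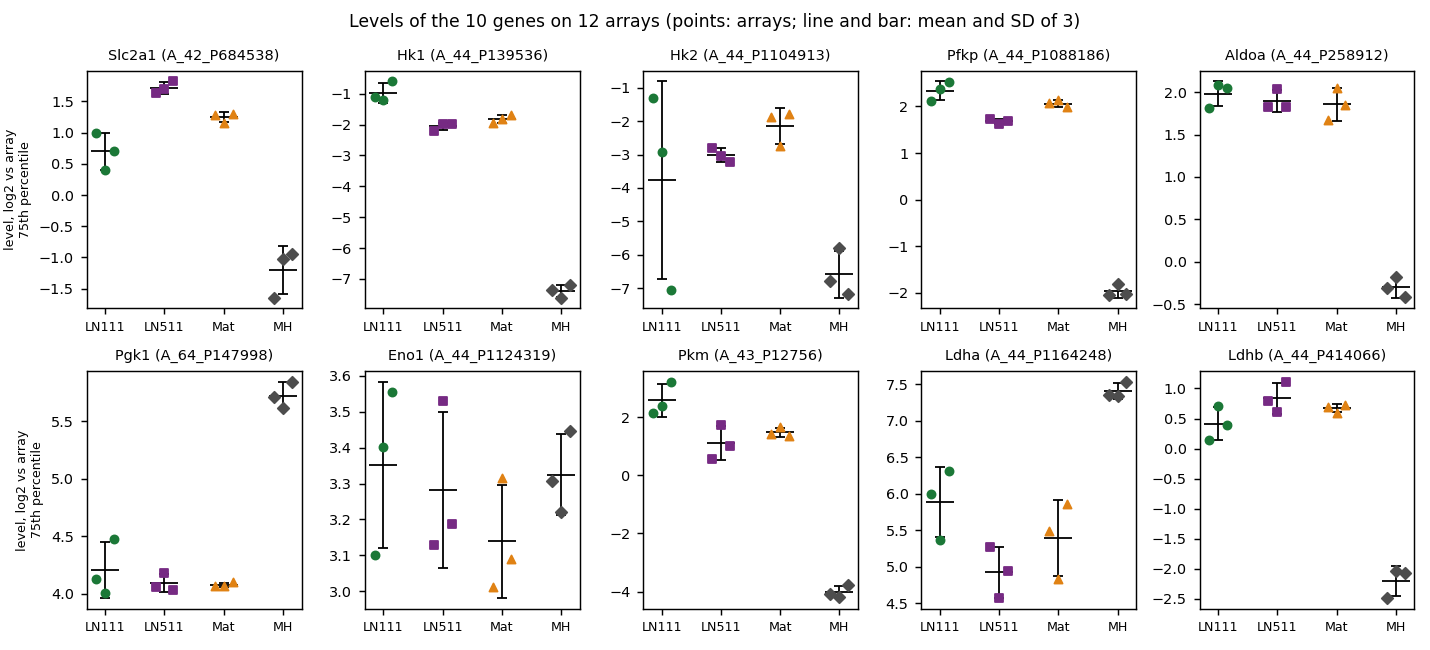
Level of each gene by its brightest probe, in log2 relative to the array's 75th percentile, for LN111, LN511, Mat and MH (points are arrays, line and bar are the mean and SD of 3). Cultured arrays lie above MH for Slc2a1, Hk1, Pfkp, Aldoa, Pkm and Ldhb and below MH for Pgk1 and Ldha.

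**Figure D2:**
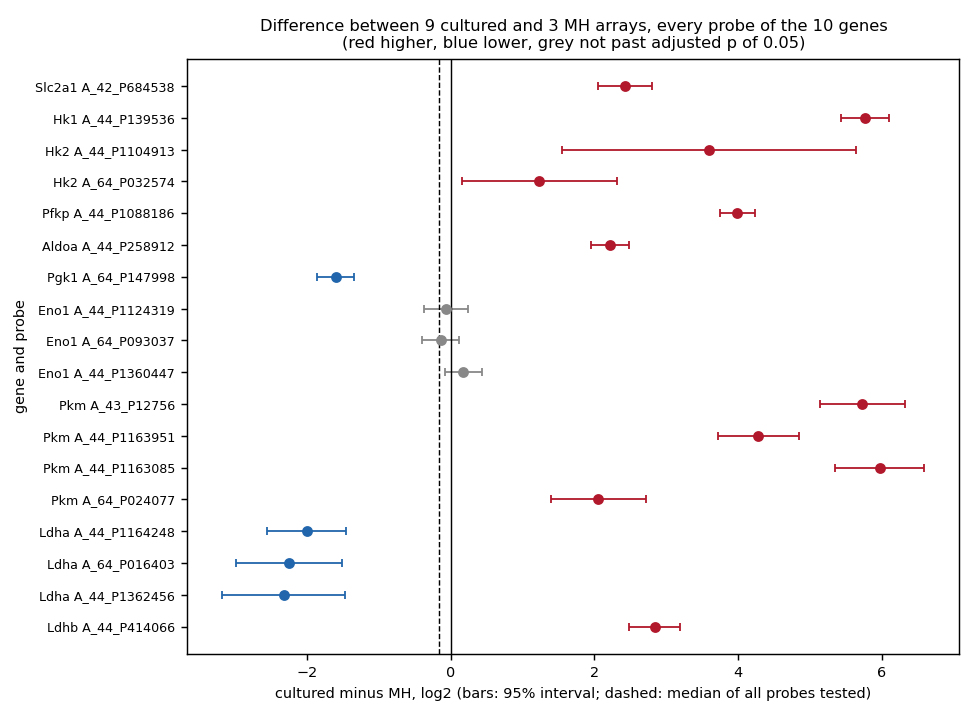
Cultured minus MH difference in log2 for each of the 18 probes, with its 95% interval, and the median of all probes tested as a dashed line. Probes of a gene lie on the same side of 0 except those of Eno1, whose intervals all include 0.

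Glucose enters through facilitative transporters, of which GLUT1 is the one most cells use. Slc2a1 measured 1.00, 0.40 and 0.71 in LN111, 1.63, 1.70 and 1.82 in LN511, 1.29, 1.16 and 1.29 in Mat, and -1.64, -1.03 and -0.94 in MH. The order was LN511, Mat, LN111 and MH, and no cultured array reached MH. Cultured cells were higher by 2.43 ± 0.17 (SE, 95% interval 2.05 to 2.80, adjusted p = 4.88e-07), about 5.37-fold. LN111 and Mat differed by -0.54 and LN511 and Mat by 0.47, neither passing the test. Of 7 other glucose transporters tested, 2 were higher and 2 lower, with a median difference of -0.28 that was 0.76 without scaling. Slc2a3, the high-affinity GLUT3, was not well above background in MH (mean -7.21) and averaged 0.46 in LN111, -3.38 in LN511 and -0.66 in Mat, at least 17.3-fold higher in culture (adjusted p = 2.89e-06). Slc2a2, the liver transporter, differed by -0.38 (adjusted p = 0.214), Slc2a5, the fructose transporter, was lower by -3.98 and Slc2a9, a urate transporter, by -1.30. Slc2a4, the insulin-responsive transporter, differed by 0.99 (adjusted p = 0.0412), which turned to -0.42 with normexp.

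Hexokinases trap glucose as glucose 6-phosphate, and Hk1 and Hk2 both have a high affinity for glucose. Hk1 measured -1.11, -1.21 and -0.60 in LN111, -2.20, -1.998 and -1.99 in LN511, and -1.94, -1.83 and -1.69 in Mat. In MH it measured -7.36, -7.60 and -7.20 and was not well above background on any array, so the difference is a lower bound. Hk1 was at least 12.9-fold higher in cultured cells (adjusted p = 8.55e-10), and at least 20.1-fold in LN111, 9.48-fold in LN511 and 11.2-fold in Mat. These bounds hold for this processing only. Over 23 other settings the fitted log2 difference between cultured and MH cells ran from 2.32, which is under the bound, to 6.81. LN111 arrays lay above all other cultured arrays, and LN511 and Mat did not differ beyond the test (difference -0.24, adjusted p = 0.499).

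Hk2 was less securely measured. Probe A_44_P1104913 gave -1.33, -2.94 and -7.05 in LN111, -2.80, -3.05 and -3.22 in LN511, -1.87, -2.76 and -1.79 in Mat, and -6.77, -5.80 and -7.16 in MH. LN111 replicate 3 fell among the MH arrays, none of which was well above background. Cultured cells were at least 5.02-fold higher on this probe (adjusted p = 0.00497) with this processing. Over 23 other settings its fitted log2 difference ran from 1.24, which is under that bound, to 4.64. The second probe, A_64_P032574, gave -4.32 to -2.31 in culture and -5.79 to -3.49 in MH, groups that overlapped. Its difference was 1.23 ± 0.48 (adjusted p = 0.0406), and it no longer passed once any of 8 arrays was left out (replicates 1 and 3 of LN111, 1 and 2 of LN511, 1 and 3 of Mat, 2 and 3 of MH). Neither Hk2 probe passed with slide as a fixed block (adjusted p = 0.14 and 0.489), and both passed with slide as a random block (0.000771 and 0.00829). The random block rests on 2 slides and gave the second probe a smaller SE, 0.38, than the fit without a block. Passing with the random block therefore gives no support.

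Among the liver and other-tissue isoforms of glycolysis and fructose use, 7 of 11 genes tested were lower in culture and 2 higher, with a median of -2.35. Khk, which phosphorylates fructose, was lower by -4.98. Hk3, a hexokinase of myeloid cells, was at least 4.62-fold higher in MH. Aldoc, the brain aldolase, was higher in culture by 2.18.

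Phosphofructokinase commits sugar to glycolysis, and Pfkp encodes its platelet-type subunit. Pfkp measured 2.12, 2.36 and 2.52 in LN111, 1.73, 1.62 and 1.69 in LN511, 2.07, 2.14 and 1.98 in Mat, and -2.06, -1.81 and -2.03 in MH. The groups were tight and MH stood well below. Cultured cells were higher by 3.99 ± 0.11 (95% interval 3.74 to 4.24, adjusted p = 1.34e-09), about 15.9-fold. The liver-type Pfkl differed by -0.37 (adjusted p = 0.0278), which turned to 0.67 without scaling.

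Aldolase A splits fructose bisphosphate. Aldoa measured 1.81, 2.08 and 2.04 in LN111, 1.82, 2.04 and 1.82 in LN511, 1.67, 2.05 and 1.85 in Mat, and -0.31, -0.18 and -0.42 in MH. The 3 cultured groups overlapped one another and none reached MH. Cultured cells were higher by 2.21 ± 0.12 (95% interval 1.95 to 2.48, adjusted p = 7.52e-08), about 4.64-fold. The differences between substrates were 0.04 to 0.12, with 95% intervals of -0.30 to 0.38 for LN511 against Mat and -0.22 to 0.47 for LN111 against Mat.

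The steps between aldolase and pyruvate kinase gave another picture. Phosphoglycerate kinase 1, which makes ATP from bisphosphoglycerate, was lower in culture. Pgk1 measured 4.13, 4.01 and 4.47 in LN111, 4.06, 4.18 and 4.03 in LN511, 4.06, 4.07 and 4.10 in Mat, and 5.71, 5.62 and 5.84 in MH. The cultured groups lay on top of one another, and the difference from MH was -1.60 ± 0.11 (95% interval -1.86 to -1.34, adjusted p = 6.33e-07). It was -0.41 with quantile scaling and -0.56 without scaling, both still passing for the 9 cultured arrays. With these scalings it did not pass for LN111 (adjusted p = 0.0569 and 0.0985), nor for Mat without scaling (-0.04, adjusted p = 0.902).

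Enolase 1 makes phosphoenolpyruvate. Its probe A_44_P1124319 measured 3.10, 3.40 and 3.56 in LN111, 3.13, 3.53 and 3.19 in LN511, 3.01, 3.32 and 3.09 in Mat, and 3.31, 3.22 and 3.45 in MH. All 4 groups overlapped. The 3 Eno1 probes differed by -0.07 (95% interval -0.37 to 0.24), -0.14 (-0.40 to 0.12) and 0.18 (-0.09 to 0.44), with adjusted p of 0.672, 0.297 and 0.2. In LN111 alone A_44_P1360447 was higher than MH by 0.43 (adjusted p = 0.0231). All 3 probes became higher in culture with quantile scaling, by 0.90, 0.83 and 0.91, and without scaling, by 0.98, 0.90 and 1.22, each passing the test.

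Of 8 other genes for steps that most tissues run with 1 main gene, 2 were higher and 4 lower, with a median of -0.29. Quantile scaling made 5 higher and 2 lower, with a median of 0.56, so the direction of this list follows the scaling. Pgm1, phosphoglucomutase at the branch to glycogen, was lower by -3.24 and Tpi1, triosephosphate isomerase, by -1.28. Pgm2 was higher by 0.77 and Bpgm, which makes bisphosphoglycerate, by 0.65.

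Pyruvate kinase makes pyruvate and ATP in the last step. Of the 8 genes measured well above background in both states by their brightest probe, Pkm differed most. Its brightest probe, A_43_P12756, measured 2.14, 2.38 and 3.22 in LN111, 0.57, 1.75 and 1.00 in LN511, 1.42, 1.66 and 1.34 in Mat, and -4.07, -4.18 and -3.78 in MH. The lowest cultured array lay far above the highest MH array. The difference was 5.73 ± 0.27 (95% interval 5.14 to 6.33, adjusted p = 3.02e-08), about 53.2-fold. Probes A_44_P1163951, whose sequence in the shared last coding exon is given above, and A_44_P1163085 differed by 4.28 ± 0.25 and 5.97 ± 0.28.

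The probe in the M1 exon behaved differently from the other 3. It measured -4.32, -4.17 and -3.02 in LN111, -6.75, -6.87 and -6.35 in LN511, -5.17, -6.29 and -5.59 in Mat, and -7.38, -7.68 and -7.28 in MH. It was well above background on 3 LN111 arrays and 2 Mat arrays, and on 0 arrays of LN511 and MH. It entered the comparison of substrates through LN111 alone, the group where it was brightest, so a difference there gives no support. LN111 was at least 2.77-fold above MH on it (adjusted p = 1.14e-05) and at least 3.73-fold above LN511 (adjusted p = 0.00436). With normexp background correction neither passed, with log2 differences of 0.61 from MH (adjusted p = 0.0672) and 0.83 from LN511 (adjusted p = 0.0923). The cultured difference of 2.06 became -0.07 with it, so a change of this probe over the 3 cultured groups was not shown. LN511 cells thus had a clear Pkm signal on the shared sequence while the M1 exon was not well above background there. Probes are not compared in level, and no probe of this gene was placed in the M2 exon, so the share of the forms was not measured.

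Lactate dehydrogenase is a tetramer of subunits encoded by Ldha and Ldhb, the first usual in liver and muscle and the second in heart. Ldha was lower in culture. Probe A_44_P1164248 measured 5.99, 5.37 and 6.31 in LN111, 5.27, 4.57 and 4.94 in LN511, 5.49, 4.84 and 5.85 in Mat, and 7.35, 7.33 and 7.53 in MH. MH was highest throughout, and replicate 2 was the lowest of each cultured group. The difference was -2.003 ± 0.25 (95% interval -2.55 to -1.45, adjusted p = 3.65e-05), and the other probes differed by -2.25 ± 0.33 and -2.32 ± 0.38.

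The direction of Ldha held on all 3 probes under each scaling tried, and its size did not. With quantile scaling the 3 probes differed by -0.49 (adjusted p = 0.0573), -0.90 and -1.19. Without scaling they differed by -0.96, -1.20 and -1.28, all passing. For LN111 alone none of the 3 passed with either of these scalings, and for Mat alone none did, while all 3 passed for LN511.

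Ldhb was higher in culture. It measured 0.15, 0.71 and 0.39 in LN111, 0.79, 0.61 and 1.11 in LN511, 0.69, 0.60 and 0.73 in Mat, and -2.48, -2.03 and -2.08 in MH. The cultured groups overlapped and MH stood below. The difference was 2.84 ± 0.16 (95% interval 2.49 to 3.19, adjusted p = 9.39e-08), about 7.15-fold.

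**Figure D3:**
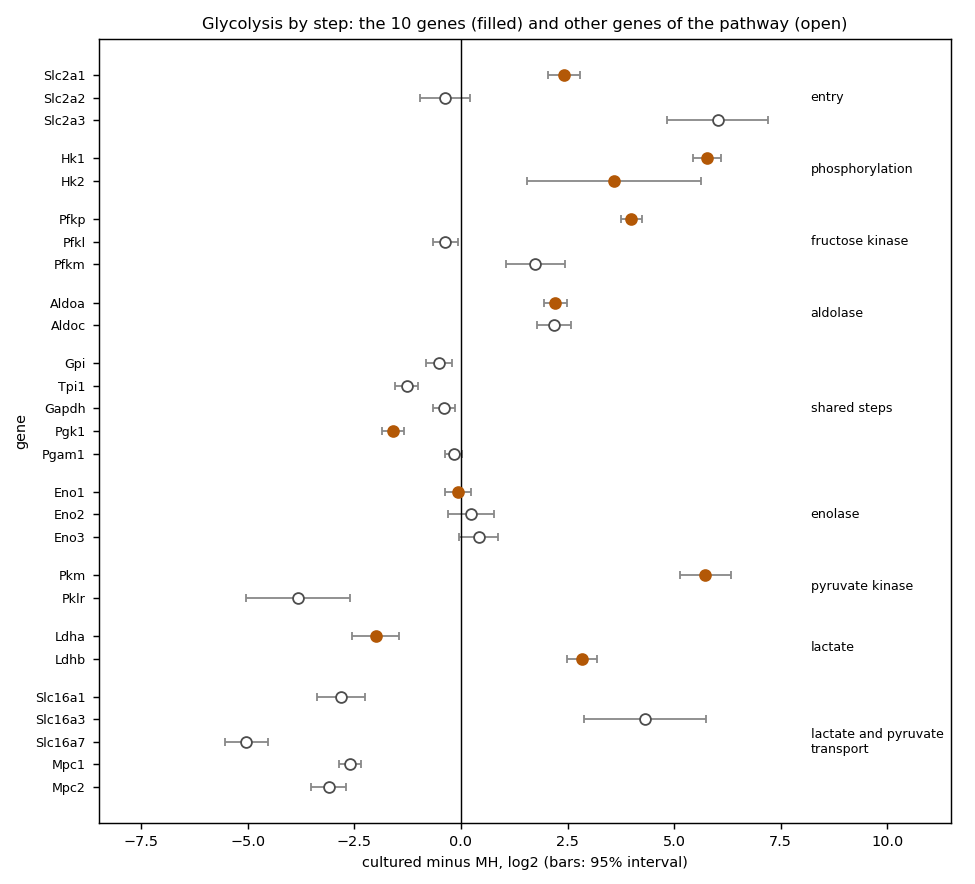
Cultured minus MH difference in log2, with 95% intervals, for the 10 genes (filled) and for other genes of the same steps (open), ordered from glucose entry to lactate and pyruvate transport. Slc2a1, Hk1, Pfkp, Aldoa, Pkm and Ldhb lie right of 0 and Pklr, Pgk1 and Ldha left of it, while the points of Hk1, Hk2, Slc2a3 and Slc16a3 are fitted against an MH signal not well above background and have no measured size.

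A ratio of 2 probes on the same array does not depend on how arrays are scaled by a constant, and shows unequal change without saying which gene changed. For 9 pairs the log2 ratio was compared between 9 cultured and 3 MH arrays by a two-sided exact permutation test over 220 assignments, whose smallest possible p is 0.00909. Of the 9 pairs, 8 passed after Benjamini-Hochberg adjustment over the 9, and 6 pairs are described. In the 3 that set a gene described here against its liver counterpart, the ratio moved away from the liver gene. It moved by 2.81 for Slc2a1 to Slc2a2, 4.36 for Pfkp to Pfkl and 9.55 for Pkm to Pklr, each with exact p = 0.00909 and adjusted p = 0.0117. The Hk1 to Hk2 pair is among the 8, but neither probe was well above background in MH, so its change has no measured size. It was 2.17 as measured (exact p = 0.0182, adjusted p = 0.0205) and 1.21 with signals raised to background (exact p = 0.0364), and it did not pass without MH replicate 1 or 2 (adjusted p = 0.0818 for each).

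The lactate dehydrogenase pair moved away from Ldha. Ldha to Ldhb was 9.37 to 9.84 in MH and 3.82 to 5.91 in culture, a change of -4.84 (exact p = 0.00909). Pkm to Pklr was -7.25 to -5.03 in MH and 1.93 to 5.33 in culture, and Pfkp to Pfkl was -0.08 to 0.32 in MH and 3.66 to 4.89 in culture. Cultured and MH arrays did not overlap in these. Eno1 to Eno3, the muscle enolase, moved by -0.48 (exact p = 0.136) and did not pass.

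**Figure D4:**
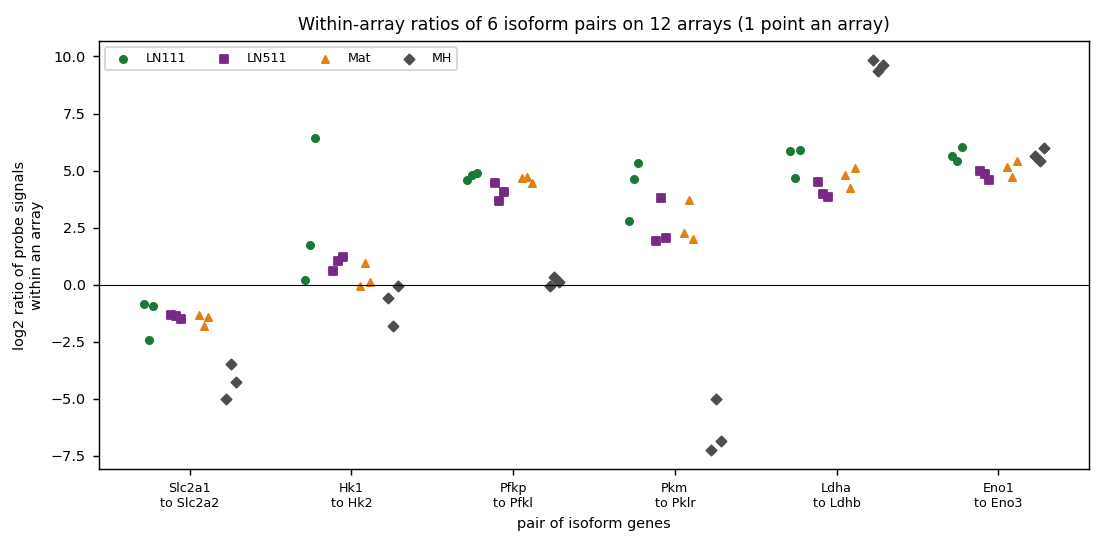
Within-array log2 ratio of probe signals for 6 pairs of isoform genes, with 1 point for each array of LN111, LN511, Mat and MH. Cultured and MH points are apart in each pair except Hk1 to Hk2 and Eno1 to Eno3.

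Within slide 1, where Mat replicates 1 and 2 and MH shared a slide, 13 of 17 probes tested passed for Mat against MH, where 61.2% of all probes did. The 13 include Hk1 and the Hk2 probe A_44_P1104913, which entered through Mat alone, so those calls give no support. The differences were 2.43 for Slc2a1, 5.50 for Hk1, 4.07 for Pfkp, 2.16 for Aldoa, -1.66 for Pgk1, 5.55 for Pkm, -2.24 for Ldha and 2.84 for Ldhb. Over all arrays the same comparison gave 2.45, 5.57, 4.03, 2.16, -1.65, 5.49, -2.01 and 2.87. Leaving Hk1 aside, these differences between Mat and MH were thus present within 1 slide. Both sets of values share all MH arrays and Mat replicates 1 and 2, so their closeness gives no support. The laminin groups were not on that slide. The other Hk2 probe, A_64_P032574, differed by 0.71 within slide 1 and did not pass (adjusted p = 0.412). The MH signal of Hk1 was not well above background, so its values have no measured size.

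The 3 substrates were compared among the 9 cultured arrays. LN111 against LN511 gave 8 probes higher and 1 lower (7 and 1 without the M1-exon probe), where 17.7% of all 22385 probes passed, 6.01% higher and 11.7% lower. Of the 10 genes by their brightest probe, Hk1, Pfkp and Pkm were higher in LN111 and Slc2a1 lower. Hk1 differed by 1.09 ± 0.18 (adjusted p = 0.00722), Pfkp by 0.66 ± 0.13 (adjusted p = 0.0147) and Slc2a1 by -1.01 ± 0.16 (adjusted p = 0.00671). The LN111 and LN511 arrays did not overlap in these 3 genes. For Hk1 the adjusted p stayed between 0.0039 and 0.0331 over 25 settings, while that of Slc2a1 reached 0.348 without scaling and that of Pfkp 0.0729.

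Pkm was higher in LN111 than LN511 by 1.47 (adjusted p = 0.0269), 1.41 (0.0252) and 1.50 (0.0268) on its 3 shared-exon probes. All 3 calls were lost without LN111 replicate 3 (adjusted p = 0.0532 to 0.0663), without LN511 replicate 1 (0.0700 to 0.0769), without LN511 replicate 3 (0.0810 to 0.0867), within slide 2 alone (0.0748 to 0.0800) and without the filter on dim probes (0.0505 to 0.0526). Ldha differed by 0.96 (adjusted p = 0.0858), 1.55 (0.0493) and 1.81 (0.0492), and none of its probes passed without LN111 replicate 3. Aldoa, Pgk1, Eno1, Ldhb and Hk2 did not pass. Their differences were 0.08 for Aldoa (95% interval -0.26 to 0.43), 0.11 for Pgk1 (-0.22 to 0.45) and -0.42 for Ldhb (-0.85 to 0.01).

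Against Mat, no probe of these genes passed for LN111 or for LN511. With replicate number as a block, 1 passed for LN511, the Ldha probe A_44_P1362456 (difference -0.95, adjusted p = 0.0386), where 13.1% of all probes passed. With LN111, 0% of all probes passed, although 2741 had an unadjusted p under 0.05, and with LN511 8.03% passed (6.89% higher, 1.13% lower). LN111 lay above Mat by 0.85 for Hk1 (95% interval 0.43 to 1.26, adjusted p = 0.313) and by 1.10 for Pkm (0.28 to 1.92, adjusted p = 0.34). LN511 lay below Mat by -0.38 for Pfkp (-0.69 to -0.07, adjusted p = 0.137). In an F test over the 3 groups, 5 of 18 probes passed, against 12.7% of all probes. They were the probes of Slc2a1 (adjusted p = 0.0164), Hk1 (0.0144) and Pfkp (0.0367), the Pkm probe A_44_P1163951 (0.0482) and the M1-exon probe (0.0092). The last entered through LN111 alone, and 4 of the 17 other probes passed. Mat lay between the laminins in mean for each of them.

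Markers of stellate cells and fibroblasts also had Mat between the laminins in summed level. Their summed level over 8 genes was 5.60 to 6.35 in LN111, 4.17 to 4.93 in Mat, 1.11 to 3.43 in LN511 and 1.50 to 1.96 in MH. In the F test 4 of the 8 passed: Acta2, Pdgfrb, Col1a1 and Col3a1, which were higher in LN111 than LN511 by 3.88, 4.32, 4.14 and 4.98. For LN511 against Mat 4 of the 8 passed, where 0 of the 10 genes described here did. Against MH, 3 of the 8 were higher in culture and 0 lower. Of 8 progenitor and biliary markers 2 passed the F test, Epcam and Cldn4, both lower in LN111 than LN511, by -1.67 and -2.55. The part of these cells in the differences of Hk1, Pfkp, Pkm and Slc2a1 was not tested.

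**Figure D5:**
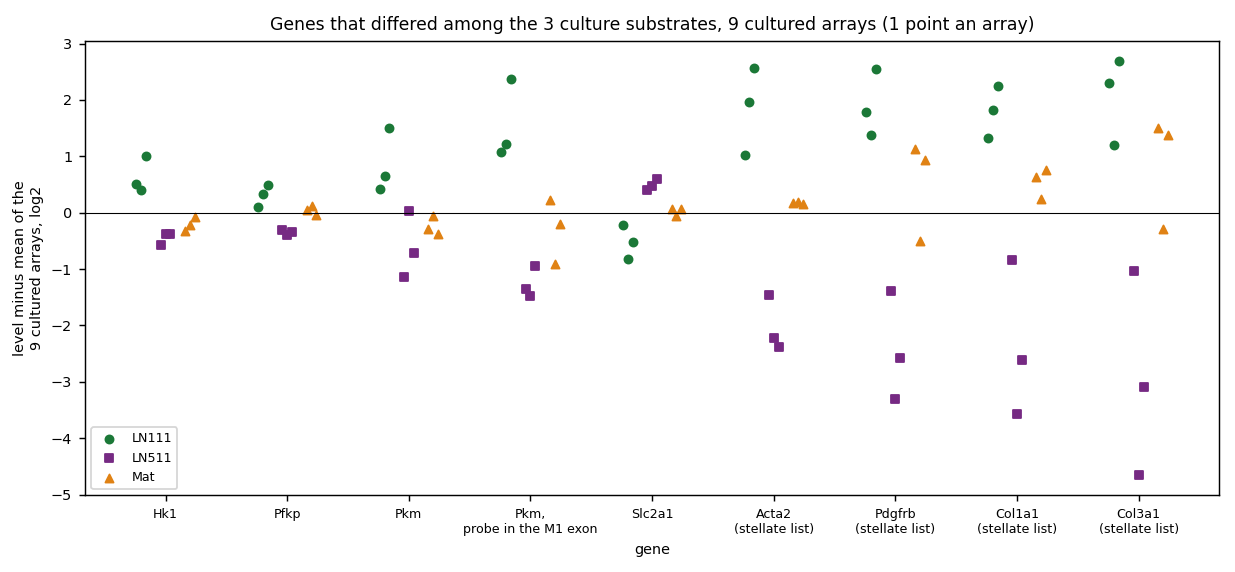
Level minus the mean of the 9 cultured arrays, in log2, with 1 point for each array. Slc2a1, Hk1, Pfkp, the M1-exon probe of Pkm and the 4 stellate and fibroblast genes passed the F test among substrates. The brightest Pkm probe, A_43_P12756, is also drawn, which did not pass it but differed between LN111 and LN511. In mean, Hk1, Pfkp, both Pkm probes and the stellate genes are highest in LN111 and lowest in LN511, and Slc2a1 runs the other way.

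Over the 9 cultured arrays Hk1 and Pkm correlated at r = 0.92, Hk1 and Pfkp at 0.86, Slc2a1 and Pfkp at -0.94 and Slc2a1 and Hk1 at -0.82. These are descriptions over arrays that share the substrate groups, the slides and the scaling. Ldha correlated with Hk1 at 0.76 and with Eno1 at -0.15. Among 12792 named genes, the pattern most like Pkm over all 12 arrays was that of Col4a1, a basement membrane collagen chain (r = 0.995). That most like Pfkp was Ndrg4 (0.998), like Hk1 Gmds, an enzyme of GDP-fucose synthesis (0.997), and like Slc2a1 Dusp5, a MAP kinase phosphatase (0.990). For Aldoa it was Map6 (0.997), for Pgk1 Clptm1 (0.995), for Ldha Rarres2, the chemoattractant chemerin (0.994), and for Ldhb Paqr8 (0.995). Hk2 and Eno1 had less similar neighbours, Socs5 at 0.951 and Abcd4 at 0.923. Apart from that of Eno1, which showed no such gap, these correlations mostly carry the gap between cultured and MH arrays.

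Genes that set the flow through the pathway were lower for 10 of 16 and higher for 6, where 41.2% of all probes were lower and 31.2% higher. These shares are the background of every gene list given here, and no list was tested as a set. Pfkfb3, which makes the fructose 2,6-bisphosphate that activates phosphofructokinase, was higher by 4.51 ± 0.32. The pyruvate dehydrogenase kinases, which keep pyruvate out of the mitochondrial acetyl-CoA route, split. Pdk3 was at least 8.59-fold higher in culture, Pdk4 at least 16.4-fold higher in MH, and Pdk1 was lower in culture by -1.83. Of 7 transport genes for lactate and pyruvate, 4 were lower and 2 higher, with a median of -2.60. Slc16a7 (MCT2) was lower by -5.03, Slc16a1 (MCT1) by -2.82 and the mitochondrial pyruvate carrier genes Mpc1 and Mpc2 by -2.60 and -3.10. Slc16a3, the lactate exporter MCT4, named after its value was seen, was at least 18.0-fold higher in culture.

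In the branches to pentose phosphates and hexosamines, 5 of 12 genes were higher and 3 lower, with a median of 0.25. Gfpt2, which opens the hexosamine branch, was higher by 5.73 ± 0.71 and Rpia, an isomerase of pentose phosphates, by 1.53. Pgls, the lactonase of the oxidative branch, was lower by -1.59 and Gnpnat1, an acetyltransferase of hexosamine synthesis, by -1.97. Of 10 transcription factor genes tied to the pathway, 4 were higher and 5 lower. Klf4 was higher by 6.68, Myc by 2.53 and Mycn at least 3.21-fold, and Mlx, the partner of the glucose sensor ChREBP, was lower by -1.65.

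Several members are known targets of hypoxia-inducible factor, which binds a core of ACGTG or GCGTG. Of 17 other genes inducible by hypoxia, 8 were higher in culture and 5 lower, with a median of 0.29. Quantile scaling gave 10 and 2, and no scaling 11 and 0. Ndrg1 was higher by 6.30, Adm by 6.10, Ddit4 by 3.45 and Egln3 by 2.21. Among the 5 lower were Arnt by -1.01, Hif1an by -0.87, Vegfa by -0.84 and Egln1 by -0.63. Without scaling these lay above 0 and did not pass. Slc2a1 and Ldha, with 4 matches each, serve as examples. Their promoters are printed from RefSeq on the GRCr8 assembly, the 250 bases before the start, with each ACGTG or GCGTG on either strand in capitals. The windows are chr5:138002272-138002521 for Slc2a1 and chr1:106507842-106508091 for Ldha, both plus strand.
Slc2a1: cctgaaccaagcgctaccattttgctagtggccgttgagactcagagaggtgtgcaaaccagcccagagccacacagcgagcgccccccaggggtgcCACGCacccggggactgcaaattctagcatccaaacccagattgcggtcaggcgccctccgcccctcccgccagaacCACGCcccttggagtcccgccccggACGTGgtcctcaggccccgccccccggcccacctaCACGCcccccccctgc
Ldha: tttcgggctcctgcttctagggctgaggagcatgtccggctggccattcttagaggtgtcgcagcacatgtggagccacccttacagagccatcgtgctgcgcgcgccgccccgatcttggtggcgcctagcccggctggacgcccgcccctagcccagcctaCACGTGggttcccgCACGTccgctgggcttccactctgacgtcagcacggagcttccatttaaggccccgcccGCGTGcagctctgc
Slc2a1 has 1 ACGTG and 3 GCGTG, and Ldha has 3 ACGTG and 1 GCGTG, where CACGTG counts on both strands. Slc2a1 was higher and Ldha lower in culture. Of the 10 genes, 9 had a window in the table, and Pgk1 is named only. These 9 had 13 windows, as some genes have several starts. Of the 13 windows, 8 held at least 1 of the motifs, and those of Hk2 and Pkm held neither. Of 33469 windows of this length, 16.6% held ACGTG, 25.9% GCGTG, 36.7% either, and 2.44% had 4 or more matches. A match is a string of letters and not a binding site, and its part in the differences was not tested.

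Other probes on the arrays detect near copies or variants of these genes under other names, and signal may be shared between a gene and its copies. Of 20 such probes, 17 were tested. The 5 Ldha-like probes were all lower in culture, by -2.68 to -2.16, and both Pgk1-like probes were lower, by -1.60 and -0.73. Both Aldoa-like probes, all 4 Pkm or Pkm-like probes and the Hk1-like probe were higher, and the 3 Eno1-like probes did not pass. Each of these probes thus went the way of the gene it is named for or resembles, and cross-hybridisation was not tested.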

How the data were processed

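Total RNA (100 ng for each array) was labelled with Cy3, per the labels' protocols, and arrays were read with Agilent Feature Extraction 10.7, per the submitters' processing notes. Values used are the processed signal, a linear intensity that was background-subtracted and detrended per the file headers. The deposited value table holds the same intensity without scaling between arrays. The log2 of that deposited intensity minus the log2 of the array's 75th percentile was computed, without outlier spots, averaging spots of a probe. A probe was tested if well above background on all 3 arrays of a group. Tests were two-sided in limma 3.58.1 (R 4.3.3; lmFit, eBayes), adjusted by Benjamini-Hochberg over all probes at 0.05. Cultured means the average over the 3 substrate groups. MH comparisons used 12 arrays and substrates 9. "At least N-fold" sets the brighter mean against the lowest signal well above background, and is a bound for this processing only. On simulated data, cultured against MH recovered 46.3% of 2-fold and 85.3% of 4-fold changes, with 3.85% of calls false. Comparisons of single groups with MH recovered 31.3% to 32.3% of 2-fold changes, with 2.38% to 5.53% of calls false, and the F test and the 2 comparisons with Mat 36.0% to 37.3%. Only a small share of probes was changed there, in MH or in Mat alone, with independent noise and no slide effect. These rates therefore do not carry over to real contrasts such as cultured against MH, where 72.4% of all probes passed. LN111 against LN511 was not simulated. Deviations from group means of same-number arrays correlated at 0.12 to 0.72 for LN511 and Mat, each pair over 0.1, so the blocked value is given there. LN511 replicate 1 and Mat replicate 3, of different numbers, correlated at 0.53 as well. The labels do not say what the numbers mark. The brightest probe stood for a gene. Besides the members, the text names the 4 smallest p-values of each pathway list, the isoform pairs, and the closest patterns. The hypoxia genes given as lower were named after their values were seen. Members, lists and tests were chosen with earlier results of these data known. Some results are not reported here. No genome was used, and the number of arrays limits precision.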

Additional observations from a re-analysis of the deposited data

Results flagged for a closer look

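Groups of 3 arrays were too small to test for an array far from the others. Among the cultured groups, 5 probes passed the test of a difference over LN111, LN511 and Mat. Their LN111 minus LN511 differences were -1.01 for Slc2a1, 1.09 for Hk1, 0.66 for Pfkp, 1.41 for Pkm on A_44_P1163951 and 2.82 for Pkm on the M1-exon probe A_64_P024077, the last against an LN511 signal that was not well above background, on a probe that entered the test through LN111 alone. In summed level, stellate and fibroblast markers were highest in LN111 and lowest in LN511 among the cultured groups, and their part was not tested.

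Of the 17 tested probes named for copies or variants, which the choice by gene name left out, 7 were higher in culture than in MH, 7 were lower and 3 did not pass. Those that lay above MH are given here. The Pkm variant probe A_64_P025351 differed by 4.45, and the probes for sequences similar to the M2 form of pyruvate kinase by 4.66 (A_44_P410062), 2.54 (A_64_P106913) and 1.73 (A_44_P168280). A_44_P168280 lies at chr8:63501121-63501180 on the plus strand, before the Pkm probes on the same strand, so it may not be a separate copy. Its difference was smaller than those of the shared-exon Pkm probes. Those similar to aldolase A differed by 2.11 (A_44_P412322) and 1.93 (A_64_P001545), and the one similar to hexokinase 1 by 2.13 (A_44_P578505).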

How the results depend on the processing

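Of 420 alternative values for the 18 probes between cultured and MH cells, 398 kept direction and side of the threshold, 14 were no longer past it, 2 were newly past it and 6 turned direction. Those that turned were Eno1 A_44_P1124319 (0.0034 with normexp, 0.90 with quantile scaling, 0.98 without scaling), Eno1 A_64_P093037 (0.83 with quantile scaling, 0.90 without scaling) and Pkm A_64_P024077 (-0.068 with normexp). With 1 probe for each gene name, fewer probes are tested, and counts fell from 15 to 9 (cultured against MH), 16 to 9 (LN111 against MH), 14 to 9 (Mat against MH), 9 to 4 (LN111 against LN511) and 5 to 3 (F test). Other causes were not tested. LN111 against LN511 fell to 3 without the filter on dim probes, on slide 2 alone, and without LN111 replicate 3 and Mat replicate 2, a setting chosen after seeing the data. LN511 against Mat rose from 0 to 15 without scaling, 6 with array weights and 1 without those 2 arrays. The F test gave 12 without scaling, 10 with array weights, 3 without the filter, 3 with slide as a fixed block, 1 on slide 2 alone and 2 without those 2 arrays. Isoform pairs fell from 8 to 5 with only probes above background on all arrays, of 6 pairs left, and to 0 on slide 1 alone, where 10 assignments cannot reach 0.05. The block on replicate number gave 1 for LN511 against Mat, 10 for the F test (all 3 Ldha probes among them), 10 for LN111 against LN511 and 15 for cultured against MH. Same-number correlations were 0.07 to 0.72 among cultured arrays, with 7 of 9 over 0.1, and -0.03 to 0.06 with MH, with 0 of 9. All 3 same-number pairs of LN511 and Mat were over that cutoff. LN111 met it in full with neither, as LN111 replicate 3, the noisiest array, was under it. Of 36 different-number pairs, 3 were over it too. Among them were LN511 replicate 1 with Mat replicate 3 at 0.53 and LN511 replicate 3 with Mat replicate 1 at 0.19. Whether the numbers mark pairs is thus not settled. The medians were alike, 0.47 for LN111 and LN511, 0.53 for LN111 and Mat and 0.53 for LN511 and Mat. A pairing of LN111 is therefore not excluded. Leaving out 1 array gave 14 to 15 (cultured against MH), 12 to 15 (LN111 against MH), 12 to 14 (LN511 against MH), 14 to 15 (Mat against MH), 3 to 11 (LN111 against LN511, fewest without LN511 replicate 3), 0 (LN111 against Mat), 0 (LN511 against Mat), 2 to 6 (F test, fewest without LN511 replicate 3) and 7 to 9 (pairs). Over all probes, calls between cultured and MH were 43.1% higher, 25.6% with normexp, 56.2% with quantile scaling and 78.5% without scaling, and for LN111 against LN511 33.9%, 22.3%, 50.2% and 77.3%. For LN111 against MH and Mat against MH, calls of these probes were 75% and 71.4% higher, and 100% and 92.9% with quantile scaling and 100% for both without scaling. All-probe calls between cultured and MH were 17156, 11317 with the stricter filter and 28672 without one. Signals near background, as for Hk1, Hk2 and the M1 exon, limit the size of differences.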
